A study of Mus musculus with 12 samples.

Results

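The genes described here belong to the NF-κB pathway of inflammatory signalling, together with cytokines and other inflammatory genes that this pathway is known to induce. They were chosen by name: each of 39 listed mouse symbols was matched to 1 Ensembl identifier in both count tables, so that 39 of the 55357 identifiers of each table were followed. By role, 5 encode NF-κB subunits, 7 upstream signalling proteins, 6 members of the IκB family, 5 other inhibitors of inflammatory signalling, 8 secreted proteins, 3 surface proteins and 5 other targets. RNA was sequenced from livers of wild-type male C57BL6/J mice aged 8 to 9 weeks and from RAW264.7 cells, a single established mouse macrophage line. For 7 days the mice were gavaged with 90 mg/kg/day of the coumarin esculetin or with 2.5% Tween-80 as vehicle, and all of them ate a diet with 10% of its energy from fat for 4 days and one with 60% for the following 3 days. All cells were given oxidized low-density lipoprotein (oxLDL) labelled with a fluorescent dye, at 25 µg/mL for 24 hours, either with esculetin at 40 µg/mL or with its solvent DMSO. Each of the 4 groups had 3 libraries, and per the study each liver library held a pair of mice. Both cell groups thus had oxLDL and both mouse groups the high-fat diet.

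NF-κB is a family of dimeric transcription factors that IκB proteins hold in the cytoplasm. Receptors for TNF, IL-1 and bacterial products activate the IκB kinase (IKK) complex, which marks IκB for destruction and lets the dimers enter the nucleus. Many genes that NF-κB induces act back on it: IκBα, A20 (Tnfaip3) and tristetraprolin (Zfp36) end the response, while TNF, IL-1β, ICAM-1 and NLRP3 carry it forward. In macrophages the pathway drives cytokine production, and in liver it is active in Kupffer cells, endothelium and hepatocytes.

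The hepatocyte markers separated the labelled sources. All 8 hepatocyte markers were present in the liver, where they summed to 116400 to 135900 CPM in the controls and 108600 to 133500 CPM with esculetin, and in the cells they summed to at most 0.146 CPM (counts scaled to a common library total), with 5 of the 8 at 0 in every library. Of the 8 Kupffer cell markers, Clec4f and Vsig4 had at most 2 counts in any cell library and Timd4 had none. The Kupffer list as a whole did not separate the sources in this way. It summed to 1326 to 1496 CPM in the control cells, mostly from Csf1r and Cd68, and to 361 to 416.8 CPM in the control livers. The libraries held 14659876 to 20346460 counts in the liver and 13752842 to 20001959 in the cells. Liver control replicate 1 stood apart from the other liver libraries on the first principal component (-47.9 against -3.44 to 19.4), and liver results are therefore also given without it. Since bulk RNA was measured, a lower value in the liver may mean fewer cells of a type or less RNA per cell, which cannot be told apart here.

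The κB consensus is the sequence element that NF-κB dimers bind, and it was looked for on both strands of the 250 bases before each transcription start in a RefSeq promoter table. Of the 39 listed genes, 30 were in that table and 11 of them (36.7%) held the consensus, against 5.67% of all 27025 genes in the table. It stood in 5 of the 18 listed genes that rose in the cells, in 2 of the 4 that fell, in 3 of the 5 that were not called and in 1 of the 3 that were not tested. A match is a description of letters and not of binding. The stretches around it are printed for the 4 genes that rose in the cells and held it outside annotated exons of protein-coding genes. Exons of noncoding genes were not checked. The stretches show what the element looks like in genes that moved. They run 5′ to 3′ along the gene, the capitals mark the consensus, and the positions are those of an exact match of the RefSeq window in build GRCm39.
Csf1, chr3:107667885-107667984, minus strand: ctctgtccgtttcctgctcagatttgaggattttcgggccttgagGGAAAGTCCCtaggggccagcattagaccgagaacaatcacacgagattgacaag
Nlrp3, chr11:59432164-59432263, plus strand: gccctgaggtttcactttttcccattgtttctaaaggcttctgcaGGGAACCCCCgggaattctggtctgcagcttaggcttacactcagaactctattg
Nfkbia, chr12:55539433-55539506, minus strand: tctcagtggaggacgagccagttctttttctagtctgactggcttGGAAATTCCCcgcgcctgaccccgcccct
Nfkbid, chr7:30121581-30121659, plus strand: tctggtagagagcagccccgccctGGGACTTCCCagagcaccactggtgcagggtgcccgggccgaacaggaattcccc
The element began 154 bases before the start of Csf1, 186 before that of Nlrp3 and 29 before that of Nfkbia, and the last is the gene of IκBα. Nfkbid and Nlrp3 have several listed starts and held it before 1 of them, in Nfkbid 226 bases away. Rel, which fell in the cells, carried GGGAAATCCC 92 bases before its start, and Tnfaip3, which rose, carried GGAAATCCCC 12 bases before 1 of its starts, both within or beside annotated exon sequence. The windows of Tnf, Il1rn and Socs3, which with Csf1 showed the largest rises among the listed genes, held no such letters, which says nothing of sites farther away.

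The comparison of the cells asks which genes of the pathway esculetin changed in macrophages loaded with oxLDL. Of the 39 genes, 34 had enough counts to be tested, and 24 passed an adjusted p of 0.05 (edgeR quasi-likelihood test, Benjamini-Hochberg over all tested genes), 19 of them higher and 5 lower with esculetin. Such calls were common in this experiment: 57.7% of all 13277 tested genes passed, 28.7% higher and 29.0% lower. The counts by role given below stand against the same shares. The median log2 fold change of the listed genes was 0.49, against -0.013 for all tested genes. A change of more than 2-fold among called genes was seen in 9 listed genes upwards and 2 downwards, against 10.6% and 8.47% of all tested genes. All but 1 of these 34 passed the filter on low counts in both groups, and the exception was Csf1, which passed through the esculetin libraries only.

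The secreted products held the largest rises, and all 4 that could be tested were called higher (median log2 fold change 2.72). Of these 4, Csf1 could be tested only because of its esculetin libraries, and both the count and the median include it. Tnf, the gene of tumour necrosis factor, had 16.1, 16.6 and 16.4 CPM in the control libraries and 94.2, 109.9 and 131 CPM with esculetin. The controls were nearly equal and the lowest esculetin library stood far above them, a rise of 6.84-fold (log2 fold change 2.77, standard error (SE) 0.12, edgeR adjusted p = 8.03e-08). Il1rn encodes the IL-1 receptor antagonist, which blocks IL-1 signalling, and had 5.86, 5.16 and 5.59 CPM in the controls and 24.1, 37.0 and 64.2 CPM with esculetin. Here too the groups did not overlap, but the esculetin libraries differed widely among themselves, with replicate 3 highest (log2 fold change 2.92, SE 0.30, edgeR adjusted p = 1.12e-05). Csf1, the macrophage growth factor M-CSF, was rare, with 8, 7 and 15 counts in the controls and 36, 64 and 51 counts with esculetin. All esculetin libraries lay above all controls (log2 fold change 2.66, SE 0.37, edgeR adjusted p = 1.08e-04). Il18, a cytokine that is cleaved by inflammasomes, rose less (log2 fold change 0.69, SE 0.16, edgeR adjusted p = 0.00370).

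The classical interleukins of an acute macrophage response were nearly absent in the same libraries. Il6 had 0 counts in all 6 cell libraries. By counting error alone, a count of 0 in a library can still occur where up to about 3 are expected. Il1b had 1, 0 and 1 counts in the controls and 0, 3 and 4 with esculetin, and Il10, an anti-inflammatory cytokine, had 1, 0 and 0 and 3, 2 and 1. Il1a had 1, 0 and 0 counts in the controls and 6, 2 and 12 with esculetin. These 4 genes were not tested, so that among the interleukins of the list only Il18 was present at a level that allowed a test.

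**Figure D1:**
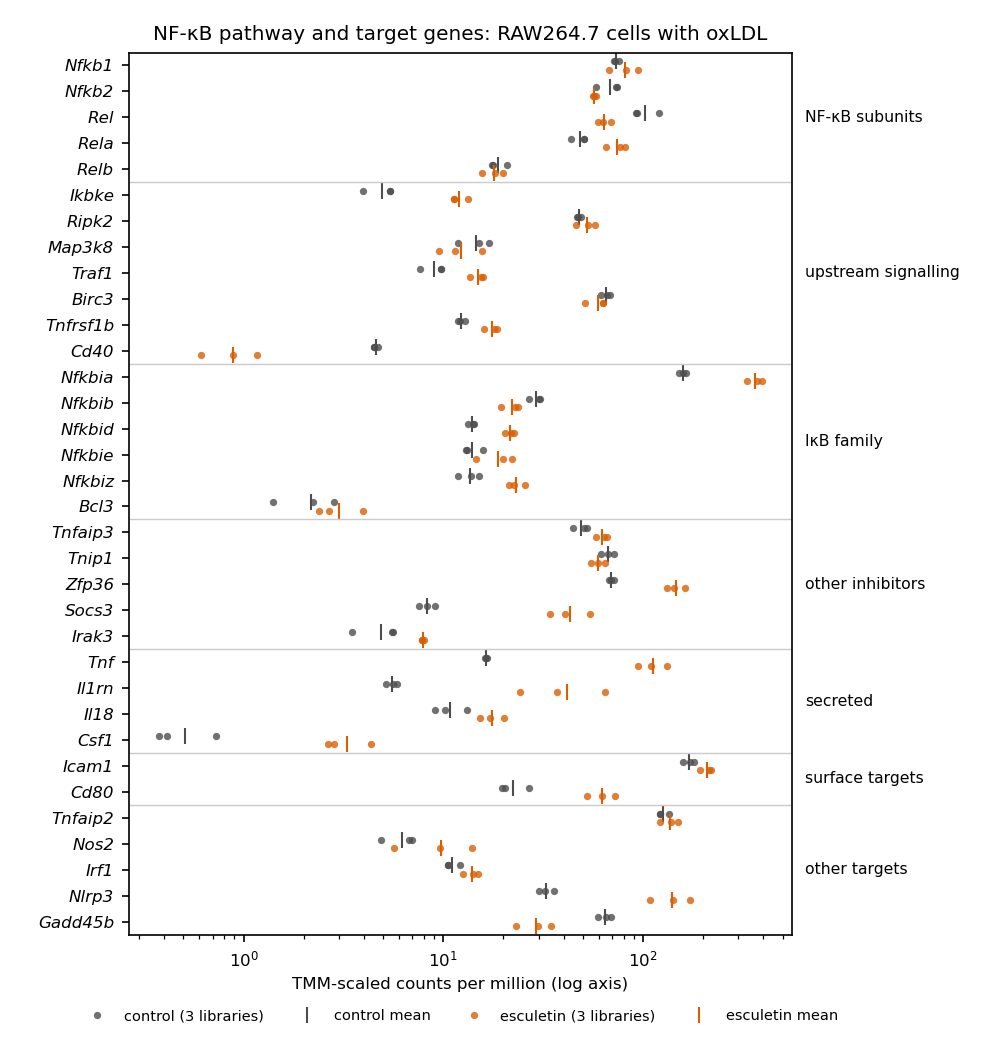
Levels of the 34 tested genes in RAW264.7 cells, in TMM-scaled CPM on a log axis, with points for libraries (3 control, 3 esculetin), ticks for group means and lines between the roles. The 3 esculetin points of Tnf, between 94.2 and 131, lie far to the right of its controls, and those of Cd40, between 0.613 and 1.17, lie to the left of its controls at 4.51 to 4.72.

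Of the 6 IκB family genes 4 were called higher and 1 lower, and of the 5 other inhibitors 4 were called higher and 0 lower. Nfkbia encodes IκBα, the main inhibitor that is resynthesized after NF-κB activation, and had 159, 163 and 152 CPM in the controls and 393, 372 and 330.2 CPM with esculetin. Per kilobase of exon it was the most abundant of the 39 genes in control cells, at 81.6 CPM, and the groups lay far apart (log2 fold change 1.21, SE 0.089, edgeR adjusted p = 1.14e-06). Nfkbiz encodes the nuclear IκBζ, a coactivator of secondary response genes, and had 13.8, 15.2 and 11.9 CPM in the controls and 25.5, 22.5 and 21.4 CPM with esculetin, with no overlap (log2 fold change 0.76, SE 0.13, edgeR adjusted p = 4.66e-04). Nfkbid, which encodes another nuclear IκB protein, had 14.3, 14.04 and 13.2 CPM in the controls and 21.8, 20.4 and 22.6 CPM with esculetin. Its libraries were tight within each group and did not overlap between them (log2 fold change 0.64, SE 0.11, edgeR adjusted p = 5.25e-04). Nfkbib, the gene of IκBβ, went the other way, with 26.9, 30.1 and 30.4 CPM in the controls and 19.5, 23.6 and 22.8 CPM with esculetin (log2 fold change -0.41, SE 0.12, edgeR adjusted p = 0.0114). All 3 esculetin libraries of Nfkbib lay below its controls, although the call was lost without control replicate 3 (adjusted p = 0.0511, the highest of 14 alternatives that began at 0.00346).

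Of the 2 remaining IκB family members, Nfkbie (IκBε) was called higher (log2 fold change 0.43, SE 0.16, edgeR adjusted p = 0.0369, 0.00273 to 0.1296 over the alternatives). Its groups overlapped, and the call was kept in 9 of 14 alternatives: it was lost when counts were scaled by library size alone and without control replicate 1 or 3 or esculetin replicate 2 or 3. Bcl3, a nuclear cofactor of p50 and p52 dimers, was not called (log2 fold change 0.47, SE 0.32, edgeR adjusted p = 0.227).

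Socs3 showed the largest rise among the 5 listed inhibitors outside the IκB family. It restrains cytokine receptors that signal through JAK kinases, and had 7.57, 8.28 and 9.10 CPM in the controls and 34.0, 40.8 and 54.3 CPM with esculetin, 5.18-fold more on average. The groups were well apart (log2 fold change 2.37, SE 0.17, edgeR adjusted p = 1.07e-06). Zfp36 encodes tristetraprolin, which destabilizes Tnf mRNA, and had 67.3, 69.3 and 71.2 CPM in the controls and 143, 162 and 132 CPM with esculetin (log2 fold change 1.07, SE 0.094, edgeR adjusted p = 3.72e-06). Tnf and the gene of the protein that acts on its mRNA were thus both higher in every esculetin library than in any control. Irak3 encodes IRAK-M, which restrains signalling from Toll-like receptors in macrophages, and had 3.47, 5.54 and 5.59 CPM in the controls and 7.83, 7.84 and 8.03 CPM with esculetin, again without overlap (log2 fold change 0.70, SE 0.20, edgeR adjusted p = 0.0119).

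Tnfaip3, the gene of the ubiquitin-editing enzyme A20, rose by a smaller amount (log2 fold change 0.35, SE 0.10, edgeR adjusted p = 0.00859). The call was lost without control replicate 3 or esculetin replicate 2, and the adjusted p ran from 0.00339 to 0.0546 over 14 alternatives. Tnip1, which encodes a partner of A20, was not called (log2 fold change -0.16, SE 0.10, edgeR adjusted p = 0.174), and 25.3% of its exon length is shared with Gpx3 on the opposite strand, whose reads cannot be told apart without strand information.

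Of the 5 NF-κB subunit genes 1 rose and 2 fell, each by less than 2-fold. Rela, which encodes the p65 subunit of the canonical dimer, had 43.5, 50.9 and 50.5 CPM in the controls and 65.1, 76.5 and 81.2 CPM with esculetin. Its esculetin libraries all lay above its controls (log2 fold change 0.62, SE 0.11, edgeR adjusted p = 4.56e-04). Rel, the gene of c-Rel, had 121, 93.2 and 91.8 CPM in the controls and 63.2, 68.8 and 59.6 CPM with esculetin, and its esculetin libraries all lay below its controls (log2 fold change -0.67, SE 0.12, edgeR adjusted p = 4.52e-04). In control cells Rel and Rela were close in level per kilobase, with ranges of 11.8 to 15.6 and 13.3 to 15.5 CPM that overlapped. Nfkb2, the precursor of p52, had 58.2, 73.9 and 73.0 CPM in the controls and 57.9, 56.1 and 56.5 CPM with esculetin. Its lowest control lay only just above the esculetin libraries (log2 fold change -0.27, SE 0.10, edgeR adjusted p = 0.0443), the call was kept in 5 of 14 alternatives (adjusted p from 0.00448 to 0.2002), and 24.5% of its exon length is shared with Psd on the opposite strand. Without control replicate 2 or 3 or esculetin replicate 2 or 3 Nfkb2 was not called. Nfkb1 (log2 fold change 0.16, edgeR adjusted p = 0.254) and Relb (-0.066, adjusted p = 0.684) were not called.

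Of the 7 upstream signalling genes 3 rose and 1 fell, and Cd40 and Ikbke changed most, in opposite directions. Cd40, the costimulatory receptor that activates the alternative NF-κB pathway, had 4.51, 4.52 and 4.72 CPM in the controls and 1.17, 0.886 and 0.613 CPM with esculetin. Its controls were nearly equal, and the mean was 5.21-fold lower with esculetin (log2 fold change -2.38, SE 0.28, edgeR adjusted p = 3.22e-05). Ikbke, the gene of the noncanonical IκB kinase IKKε, had 3.94, 5.43 and 5.40 CPM in the controls and 11.3, 13.4 and 11.3 CPM with esculetin, without overlap (log2 fold change 1.28, SE 0.17, edgeR adjusted p = 8.46e-05). Traf1, an adaptor of TNF receptors, had 9.74, 9.68 and 7.64 CPM in the controls and 15.4, 15.8 and 13.6 CPM with esculetin. Tnfrsf1b, the gene of TNF receptor 2, had 11.8, 12.2 and 12.9 CPM in the controls and 16.0, 18.6 and 17.96 CPM with esculetin. In both genes the esculetin libraries all lay above the controls, and the log2 fold changes were 0.73 (SE 0.14, edgeR adjusted p = 0.00126) for Traf1 and 0.51 (SE 0.12, adjusted p = 0.00359) for Tnfrsf1b. Ripk2, Map3k8 and Birc3 overlapped between groups and were not called, at log2 fold changes of 0.13, -0.27 and -0.14.

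The surface targets divided into a costimulatory molecule with a clear rise and an adhesion molecule with a small one. Cd80, a ligand of CD28 on T cells, had 26.8, 20.3 and 19.6 CPM in the controls and 52.5, 62.3 and 72.4 CPM with esculetin (log2 fold change 1.49, SE 0.15, edgeR adjusted p = 9.26e-06). Cd80 and Cd40, both known as activation markers of macrophages, therefore moved in opposite directions, each without overlap between groups. Icam1, which binds leukocyte integrins and was second only to Nfkbia in level per kilobase in control cells (34.3 CPM), had 159, 181 and 172 CPM in the controls and 192, 214 and 218 CPM with esculetin. The groups did not overlap (log2 fold change 0.29, SE 0.088, edgeR adjusted p = 0.0146), and the call was lost without esculetin replicate 2 (adjusted p = 0.0735, the highest of 14 alternatives that began at 0.00458). Vcam1 had 1, 0 and 0 counts in the controls and 2, 0 and 0 with esculetin and was not tested.

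Of the other targets, the inflammasome sensor gene Nlrp3 rose and the stress gene Gadd45b fell. Nlrp3 had 30.01, 35.8 and 32.1 CPM in the controls and 108, 141 and 171 CPM with esculetin, 4.29-fold more on average (log2 fold change 2.10, SE 0.15, edgeR adjusted p = 9.22e-07). Gadd45b, which restrains apoptosis downstream of NF-κB, had 59.2, 69.3 and 64.9 CPM in the controls and 34.7, 29.6 and 23.1 CPM with esculetin (log2 fold change -1.15, SE 0.14, edgeR adjusted p = 3.33e-05). Neither gene overlapped between groups. Nos2, the inducible nitric oxide synthase, had 6.74, 4.89 and 7.00 CPM in the controls and 13.98, 9.61 and 5.69 CPM with esculetin, overlapped and was not called (adjusted p = 0.0721, 0.00241 to 0.326 over 14 alternatives, of which 4 called it). Irf1 was not called either, although its groups did not overlap (log2 fold change 0.33, edgeR adjusted p = 0.0536, 0.0344 to 0.2087 over 14 alternatives, of which 4 called it). Of its exon length, 31.4% is shared with the gene model Gm17334 on the opposite strand. Tnfaip2 overlapped and was not called (log2 fold change 0.11, edgeR adjusted p = 0.329).

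Over the list, the groups did not overlap for 19 genes upwards and 5 downwards, against 31.0% and 33.1% of all tested genes. For Tnf, Il1rn, Socs3, Cd80 and Nlrp3 the esculetin libraries stood in one order, with replicate 1 lowest and replicate 3 highest. The same order was seen on the first principal component of all genes (40.8, 51.6 and 60.5) and in the total counts (13752842, 14954496 and 18801094), and its part in these values was not tested. Genes that mark macrophages moved as well: 5 of 8 were called higher, against 28.7% of all tested genes. Lyz2 and Csf1r, the receptor for M-CSF, were among the 5. The sum of the 8 was 2337 to 2505 CPM in the controls and 5052 to 7613 CPM with esculetin. The largest part of its rise was Lyz2 (means of 638 and 3496 CPM). Cd68, Fcgr1 and Ptprc were not called, and Ptprc had a negative log2 fold change (-0.27). Kupffer cell markers, which such a line shares in part, summed to 1326 to 1496 and 2102 to 2517 CPM. Most of that sum came from Csf1r (means of 848 and 1654 CPM) and Cd68 (551 and 639 CPM), which are also macrophage markers. Adgre1 and Csf1r were called higher and Cd5l lower (log2 fold change -1.98, edgeR adjusted p = 8.80e-04). Monocyte and neutrophil markers summed to 0.484 to 1.40 and 3.59 to 4.77 CPM, with Ly6g and Retnlg at 0. Among the monocyte and neutrophil markers Ccr2 was called higher (means of 0.203 and 2.75 CPM), and Csf3r was tested but not called. Ccr2 passed the filter on low counts through the esculetin libraries only. The part of these markers in the changes of the listed genes was not tested.

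The pathway was extended by 2 lists of genes outside the 39. The first held 32 genes of receptors, adaptors and kinases that lead to IKK, of which 30 were tested in the cells. Of these 13 were called higher and 4 lower, with a median log2 fold change of 0.20. Over all tested genes 28.7% were called higher and 29.0% lower. The share of the list called either way was thus near the 57.7% over all genes. All 3 subunits of the canonical IKK complex rose on the log2 scale, Chuk (IKKα) by 0.74 (SE 0.10, edgeR adjusted p = 6.52e-05), Ikbkb (IKKβ) by 0.44 (SE 0.083, adjusted p = 8.40e-04) and Ikbkg (NEMO) by 0.41 (SE 0.089, adjusted p = 0.00200). Ripk1, the kinase and scaffold at the TNF receptor, had 27.6, 27.6 and 24.8 CPM in the controls and 69.9, 75.6 and 82.3 CPM with esculetin (log2 fold change 1.51, SE 0.10, edgeR adjusted p = 5.53e-07). Il1rap, the accessory chain of the IL-1 receptor, had 13.0, 9.04 and 11.4 CPM in the controls and 29.4, 32.0 and 34.7 CPM with esculetin (log2 fold change 1.52, SE 0.14, edgeR adjusted p = 6.48e-06). Both lay well above their controls in every esculetin library, while Il1r1, the chain that binds IL-1, had 1, 0 and 0 counts in the controls and 1, 2 and 2 with esculetin. Tank, an adaptor of the kinases TBK1 and IKKε, rose by 0.77 (SE 0.11, edgeR adjusted p = 1.50e-04).

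The called genes that fell in that list were Traf3 and all 3 subunits of LUBAC, the complex that builds linear ubiquitin chains at TNF and CD40 receptors. Rbck1 (HOIL-1) had 126, 139 and 139.8 CPM in the controls and 86.3, 81.4 and 87.4 CPM with esculetin (log2 fold change -0.67, SE 0.083, edgeR adjusted p = 4.38e-05). Rnf31, the gene of its catalytic subunit HOIP, had 44.9, 47.1 and 43.0 CPM in the controls and 29.2, 29.1 and 29.9 CPM with esculetin (log2 fold change -0.61, SE 0.10, edgeR adjusted p = 2.15e-04). Sharpin had 41.3, 45.1 and 46.6 CPM in the controls and 29.7, 30.9 and 34.3 CPM with esculetin (log2 fold change -0.49, SE 0.10, edgeR adjusted p = 0.00190). None of the 3 overlapped between groups. Traf3, which restrains the alternative pathway, had 80.03, 78.7 and 79.4 CPM in the controls and 50.1, 52.8 and 57.5 CPM with esculetin (log2 fold change -0.57, SE 0.086, edgeR adjusted p = 1.76e-04).

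The second list held 20 inhibitors of the pathway, of which 18 were tested in the cells, 5 were called higher and 5 lower, with a median log2 fold change of -0.10. Itch (0.76, SE 0.10, edgeR adjusted p = 5.89e-05), Tnip3 (0.75, SE 0.12, adjusted p = 3.54e-04) and Tax1bp1 (0.58, SE 0.11, adjusted p = 0.00104), all partners of A20, rose on the log2 scale. Rnf11 (0.13, edgeR adjusted p = 0.210) and Tnip2 (-0.16, adjusted p = 0.256) of the same list were not called. Trim30a, an interferon-induced inhibitor, had 0, 6 and 3 counts in the controls and 44, 131 and 107 with esculetin and was called higher. It passed the filter on low counts through the esculetin libraries only. Zfp36l1, a paralogue of Zfp36, had 81.4, 74.8 and 79.2 CPM in the controls and 37.0, 24.3 and 19.4 CPM with esculetin, and thus fell while Zfp36 rose (log2 fold change -1.55, SE 0.18, edgeR adjusted p = 2.97e-05). Cyld, a deubiquitinase that removes the chains built by LUBAC, fell by 0.55 on the log2 scale (SE 0.09, edgeR adjusted p = 2.96e-04), Zc3h12c by 0.79 (SE 0.13, adjusted p = 3.76e-04) and Commd1, which promotes the turnover of p65, by 0.72 (SE 0.14, adjusted p = 0.00114). Rises and falls were equally many among these inhibitors when Trim30a was counted, at shares near those over all genes.

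**Figure D2:**
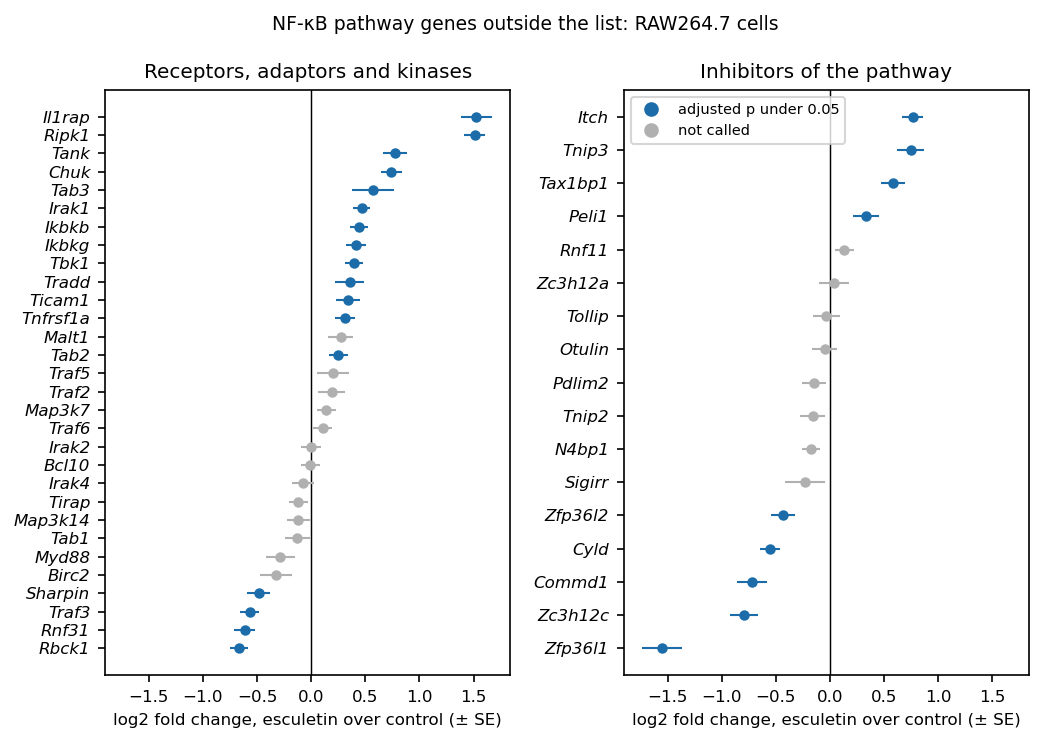
Log2 fold change of esculetin over control (x axis, with SE) for tested genes of both added lists in RAW264.7 cells; blue points passed an adjusted p of 0.05 and grey ones did not, and Trim30a is left out because its controls had 0 to 6 counts. Ripk1 and Il1rap lie farthest to the right, and Rbck1, Rnf31, Traf3 and Sharpin lie lowest in the left panel.

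The liver comparison asks whether the same genes changed in the whole organ after esculetin by gavage. Of the 39 genes, 31 were tested and 0 passed an adjusted p of 0.05 in edgeR, where 0.0859% of all 12813 tested genes passed. DESeq2 called 1 of them, Icam1, and limma-voom 0. At an unadjusted p under 0.05 there were 9 of the 31 genes (29.0%, against 8.37% of all tested genes), 2 higher (6.45%, against 3.39%) and 7 lower (22.6%, against 4.98%). The number was 6 without control replicate 1, 4 without esculetin replicate 2 and 5 without esculetin replicate 3. Log2 fold changes were below 0 for 23 of the 31 genes, against 53.5% of all tested genes, and 4 of those 23 (Map3k8, Cd40, Irak3 and Gadd45b) passed the filter on low counts in the control libraries only. Of these 4, Map3k8 was also among the 7 lower genes at an unadjusted p under 0.05. The median of the listed genes was -0.20, against -0.020 for all tested genes. The number of listed genes above 0 ran from 7 to 12 over the alternatives, with 12 without control replicate 1 or 3 in place of 8.

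Icam1 stood out among the surface targets, with 7.43, 7.20 and 8.86 CPM in the control livers and 4.41, 3.70 and 4.40 CPM with esculetin. All 3 esculetin libraries lay below all controls (log2 fold change -0.91, SE 0.20, edgeR adjusted p = 0.165), and the adjusted p ran from 0.0105 to 0.675 over 14 alternatives. Without control replicate 1 the log2 fold change was -0.93. Vcam1, another adhesion molecule of activated endothelium, had 8.66, 8.49 and 7.69 CPM in the controls and 6.32, 5.07 and 5.82 CPM with esculetin, also without overlap (log2 fold change -0.53, SE 0.18, edgeR adjusted p = 0.459). Cd80 had 7, 10 and 3 counts in the controls and 6, 4 and 0 with esculetin and was not tested. The 8 endothelial markers summed to 198.6 to 215.5 CPM in the controls and 205.7 to 212.3 CPM with esculetin, with a median log2 fold change of -0.11. Of these markers, Cdh5 (23.6, 25.6 and 22.3 CPM against 18.2, 21.5 and 18.1 CPM) and Oit3 were lower in every esculetin library than in any control, and the most abundant, Clec4g, had means of 60.0 and 72.1 CPM. Their part in the values of Icam1 and Vcam1 was not tested.

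Among the other targets, Irf1, an interferon-responsive transcription factor, had 27.4, 21.7 and 28.1 CPM in the controls and 20, 18.3 and 14.1 CPM with esculetin (log2 fold change -0.56, SE 0.17, edgeR adjusted p = 0.340). Tnfaip2, a TNF-induced gene, had 38.5, 37.9 and 35.5 CPM in the controls and 21.4, 33.4 and 25.5 CPM with esculetin (log2 fold change -0.48, SE 0.16, edgeR adjusted p = 0.438). Neither overlapped between groups and neither was called. Gadd45b had 11, 14 and 26 counts in the controls and 11, 10 and 7 with esculetin, where 11 counts occurred in both groups but the scaled values did not overlap (log2 fold change -0.74, edgeR adjusted p = 0.690). Nos2 had 4, 2 and 1 counts in the controls and 0 in every esculetin library, and Nlrp3 had 20, 5 and 9 and 14, 8 and 2 counts. Both were below the filter.

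Of the secreted proteins, Il1rn had 4.79, 2.62 and 4.08 CPM in the controls and 2.29, 2.21 and 1.81 CPM with esculetin (log2 fold change -0.85, SE 0.29, edgeR adjusted p = 0.453). Csf1 had 10.3, 8.88 and 10.2 CPM in the controls and 8.50, 7.08 and 6.67 CPM with esculetin (log2 fold change -0.40, SE 0.17, edgeR adjusted p = 0.569). Both were lower in every esculetin library than in any control and were not called. Il1b and Il1a were present in the liver, unlike in the cells, at means of 5.92 ± 0.870 and 2.64 ± 1.25 CPM (SD, n = 3) in the controls and 5.26 ± 0.541 and 2.26 ± 0.395 CPM with esculetin. Both overlapped between groups, as did Il18 (log2 fold change 0.14, adjusted p = 0.813). Tnf had 4, 0 and 2 counts in the control livers and 1, 2 and 2 with esculetin, Il6 had 2, 0 and 0 in the controls and Il10 had 1, 0 and 4, and both had 0 in every esculetin library. All 3 were below the filter. No fold change is given for such counts, so that the rise of Tnf seen in the cells has no measured counterpart in the liver.

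**Figure D3:**
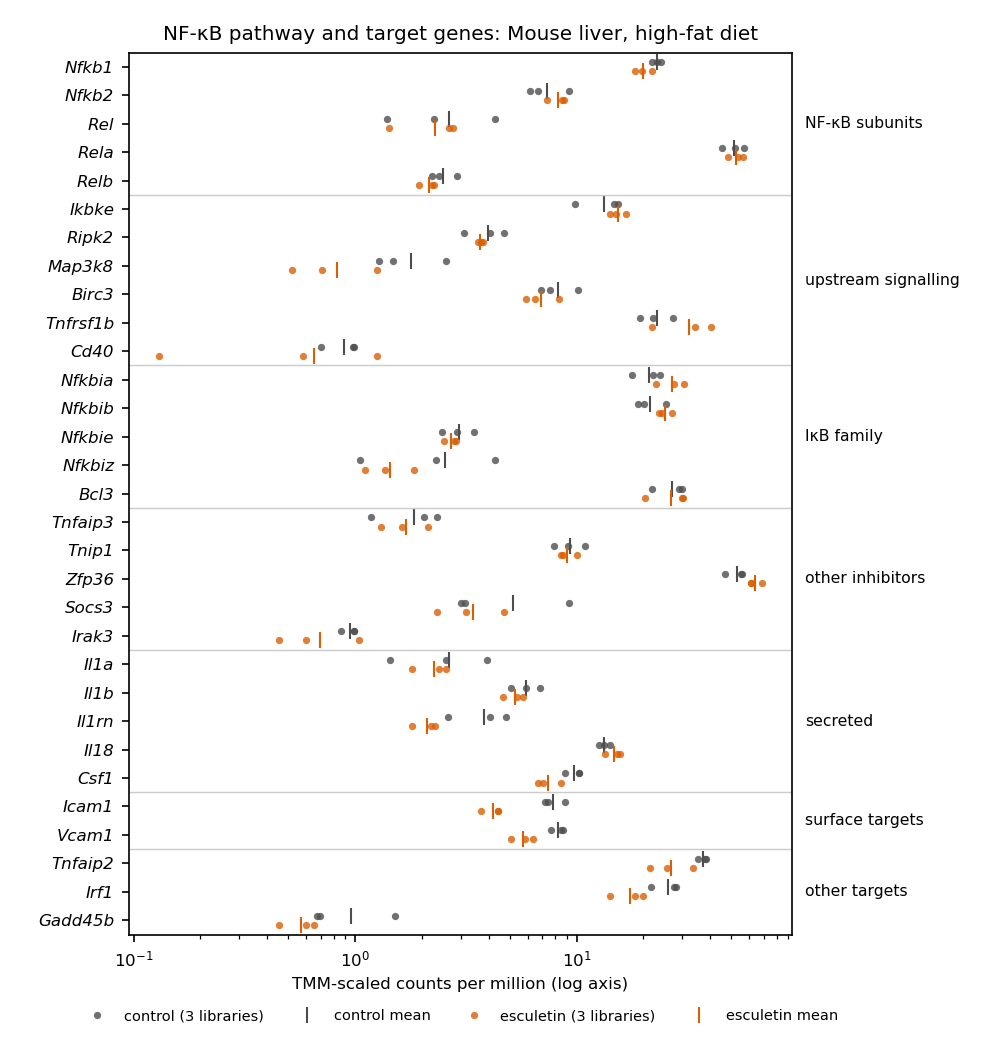
Levels of the 31 tested genes in mouse liver, in TMM-scaled CPM on a log axis, with points for libraries (3 control, 3 esculetin, each from a pair of mice) and ticks for group means. The points of Icam1 lie between 7.20 and 8.86 in the controls and between 3.70 and 4.41 with esculetin, whereas most other genes overlap.

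None of the subunit and inhibitor genes was called in the liver. Zfp36 had 55.5, 46.7 and 56.0 CPM in the controls and 61.2, 61.2 and 68.6 CPM with esculetin, the only tested gene of the list that was higher in every esculetin library, where 6.52% of all tested genes were (log2 fold change 0.27, SE 0.12, edgeR adjusted p = 0.578). Lower without overlap were 8 of the 31 listed genes (25.8%), against 7.95% of all tested genes, but Map3k8 and Gadd45b among the 8 had passed the filter through the control libraries only. Socs3 had 9.28, 3.01 and 3.15 CPM in the controls and 4.69, 2.34 and 3.17 CPM with esculetin, and its log2 fold change was -0.58 with all libraries and 0.16 without control replicate 1. The highest value of Socs3, and those of Nfkbiz, Rel and Map3k8, came from control replicate 1, the library that stood apart. Nfkbia had 17.8, 23.9 and 22.0 CPM in the controls and 22.7, 27.6 and 30.6 CPM with esculetin, overlapped and was not called (log2 fold change 0.34, SE 0.16, edgeR adjusted p = 0.597). The 5 subunit genes ran from -0.21 to 0.16 on the log2 scale with no unadjusted p under 0.05, and Nfkbib, Nfkbie, Bcl3, Nfkbiz, Tnfaip3, Tnip1 and Irak3 were not called either. Nfkbid had 6, 5 and 3 counts in the controls and 6, 6 and 2 with esculetin and was not tested.

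Of the upstream genes, Map3k8, the gene of the kinase TPL2, had 2.58, 1.48 and 1.28 CPM in the controls and 1.25, 0.519 and 0.712 CPM with esculetin (log2 fold change -1.07, SE 0.43, edgeR adjusted p = 0.530). Tnfrsf1b had 22.2, 27.3 and 19.4 CPM in the controls and 21.9, 34.3 and 40.5 CPM with esculetin (log2 fold change 0.48, SE 0.21, edgeR adjusted p = 0.556). The first did not overlap between groups and rested on 8 to 42 counts, and the second overlapped. Traf1 had 11, 6 and 7 counts in the controls and 3, 6 and 5 with esculetin and was not tested, while Ikbke, Ripk2, Birc3 and Cd40 were tested, overlapped and were not called. In the added lists 0 of 32 activating genes and 0 of 18 tested inhibitors were called in the liver by edgeR, DESeq2 or limma-voom, and 0 of either had an unadjusted p under 0.05.

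Without control replicate 1 the log2 fold changes of the genes with an unadjusted p under 0.05 kept their sign, at -0.50 for Irf1, -0.45 for Tnfaip2, -0.65 for Il1rn, -0.49 for Vcam1, -0.71 for Map3k8, -0.35 for Csf1, 0.46 for Tnfrsf1b and 0.31 for Zfp36.

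Marker genes of other cell types were read in the same livers. The 8 Kupffer cell markers summed to 361 to 416.8 CPM in the controls and 323.5 to 367.8 CPM with esculetin, with a median log2 fold change of -0.25 and 0 called by edgeR. Vsig4 (log2 fold change 0.019), Cd5l (-0.076), Timd4 (-0.098) and Clec4f (-0.22) among them overlapped between groups. The remaining Kupffer cell markers, Marco (log2 fold change -0.77), Cd68 (-0.50), Csf1r (-0.28) and Adgre1 (-0.31), were lower in every esculetin library than in any control. Macrophage markers, which share the last 3, summed to 151 to 194.5 and 154 to 167 CPM with a median log2 fold change of -0.31 and 0 called, and the most abundant, Lyz2, had 56.6 to 90.8 and 75.9 to 80.3 CPM, while Spi1 was lower in every esculetin library. The sums in the controls and with esculetin were for monocyte and neutrophil markers 4.66 to 4.98 and 2.67 to 4.40 CPM (with Ly6g and Mpo at 0 in every library), for lymphocyte markers 3.85 to 4.84 and 2.18 to 4.59 CPM, for stellate cell markers 205 to 235 and 187 to 206 CPM and for cholangiocyte markers 33.5 to 37.4 and 29.8 to 35.3 CPM. The part of these cells in the values of the listed genes was not tested.

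The effects of esculetin in macrophages and liver were then set against each other by a test of the difference itself in all 12 libraries. The experiments differ in cell type, dose, route and time, which cannot be told apart. The difference was tested for 37 of the 39 genes and passed an adjusted p of 0.05 for 18, of which 16 had the higher log2 fold change in the cells and 2 the lower. Of all 15709 tested genes 27.1% passed, 13.4% higher in the cells and 13.7% lower. For Tnf, Il1a and Nos2 at least 1 group had at most 3 counts in every library, so that no size is given for their differences. Nlrp3 and Cd80, also among the 18, were below the filter on low counts in the liver and were not tested there alone. Of the 28 genes tested in both experiments, 13 had a positive log2 fold change in the cells and a negative one in the liver, 2 the reverse, 6 were positive in both and 7 negative in both. Opposite signs were seen for 55.9% of the 10449 genes tested in both tables.

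Il1rn showed the widest gap among the quantified genes, with log2 fold changes of 2.92 in the cells and -0.85 in the liver (difference in the joint model 3.72, SE 0.45, edgeR adjusted p = 2.47e-05). Csf1 had 2.66 and -0.40 (difference 3.01, SE 0.37, edgeR adjusted p = 2.96e-05), and Socs3 had 2.37 and -0.58 (difference 2.90, SE 0.50, edgeR adjusted p = 4.63e-04). The 3 genes thus lay on opposite sides of 0 in macrophages and liver, although none was called in the liver, and for Socs3 the liver value turned positive without control replicate 1 (difference then 2.23, called). For Icam1 the log2 fold changes were 0.29 and -0.91 (difference 1.15, SE 0.18, edgeR adjusted p = 1.81e-04). The difference was the reverse for Cd40, with -2.38 in the cells and -0.40 in the liver (difference -2.02, SE 0.67, edgeR adjusted p = 0.0333), a call that was kept in 7 of 17 alternatives, whose adjusted p ran from 0.00504 to 0.309. Tnfrsf1b had log2 fold changes of 0.51 and 0.48, and its difference of -0.014 (SE 0.27) was not called.

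**Figure D4:**
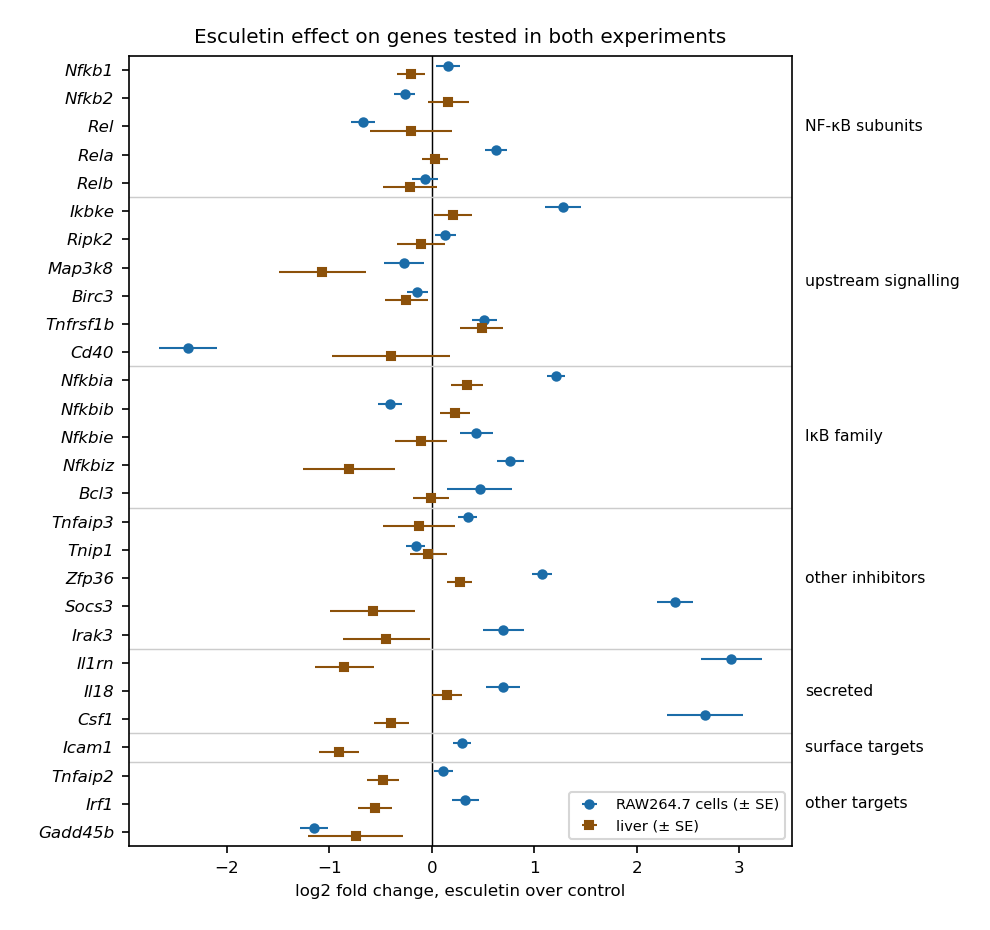
Log2 fold change of esculetin over control (x axis, with SE) for the 28 genes tested in both experiments, blue circles for RAW264.7 cells and brown squares for liver, ordered by role. Il1rn, Socs3 and Csf1 lie between 2.37 and 2.92 in the cells and between -0.85 and -0.40 in the liver, while the symbols of Tnfrsf1b nearly coincide.

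The order of levels also differed between the sources. In control cells Nfkbia (81.6 CPM per kilobase of exon, range 78.5 to 84.2) led, followed by Icam1 (31.9 to 36.4) and Tnfaip2 (24.0 to 26.9), whose ranges did not overlap, and then by Gadd45b (19.9 to 23.3) and Zfp36 (19.2 to 20.3), whose ranges did. In control livers Rela (13.9 to 17.4) and Zfp36 (13.3 to 16.0) led with overlapping ranges, ahead of Nfkbia (9.16 to 12.3) and Nfkbib (8.02 to 10.7), which overlapped each other. With esculetin, Tnf rose from the ninth to the second place in the cells per kilobase, and Cd40 fell to the lowest place of the tested genes.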

How the data were processed

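RNA was sequenced in 6 liver and 6 RAW264.7 libraries, 3 per group. The deposited values are raw counts per gene. According to the labels and the study's methods, the authors aligned the reads to GRCm39 with HISAT2 2.2.1 and counted them per gene with featureCounts; mm10 is also named in the processing notes, and the annotation, strandedness and treatment of multimapping reads are not given in the sources used here. Coordinates and exon lengths came from GENCODE for GRCm39, in which 54749 of 55357 identifiers matched. Nothing states that cell libraries came from separate cultures, so p-values measure the spread between these libraries, which may be technical.

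For each experiment a separate edgeR 4.0.16 fit (R 4.3.3) compared esculetin with control by the quasi-likelihood test, after filterByExpr and TMM scaling. Two-sided p-values were adjusted over all tested genes. The difference between experiments was tested in a 4-group model of all libraries. SEs were derived from the F statistics, and CPM were scaled by TMM. A gene in a group with at most 3 counts in every library got no fold change, and such limits cover counting error only. Fits were tested on simulated data. Other scalings, filters, DESeq2 1.42.0, limma-voom (limma 3.58.1), a replicate block and leaving out each library were tried.

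The listed genes, the role groups, the 2 added pathway lists and the marker lists (hepatocyte, Kupffer, monocyte and neutrophil, lymphocyte, endothelial, stellate, cholangiocyte, macrophage) were chosen with earlier results of these data known. Library values are given for up to 3 called genes each way per role in the cells, for genes with an unadjusted p under 0.05 in the liver and for untested genes, and of the added lists up to 4 genes each way with the smallest p are named. Ikbkb, Ikbkg, Il1r1, Rnf11, Tnip2 and a few listed genes (Nos2 in the cells, and Gadd45b, Socs3 and Nfkbia in the liver) were named after their values were seen. Protein sequences were not analysed here. Promoter sequences are from RefSeq (GRCm38.p6) and were placed in GRCm39 by exact match.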

Additional observations from a re-analysis of the deposited data

Results flagged for a closer look

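The esculetin effect differed between the cells and the liver by the edgeR test of the difference (adjusted p under 0.05 over all tested genes) for 15 listed genes whose groups all had more than 3 counts in some library. As log2 fold change in the cells minus that in the liver, the differences were 3.72 for Il1rn, 3.01 for Csf1, 2.90 for Socs3, 2.45 for Nlrp3 and 2.31 for Cd80. They were 1.53 for Nfkbiz, 1.15 for Icam1, 1.04 for Ikbke, 0.84 for Irf1, 0.82 for Nfkbia and 0.76 for Zfp36. The smallest positive ones were 0.55 for Tnfaip2 and 0.55 for Rela, and the negative ones were -0.67 for Nfkbib and -2.02 for Cd40. Nlrp3 and Cd80 were below the filter on low counts in the liver, with 2 to 20 and 0 to 10 counts per library. They had no liver fold change of their own, so the sizes of their differences rest on few liver counts. Leaving out 1 library ended the call of Cd80 (liver control replicate 2), Nlrp3 (liver control replicate 1), Nfkbib (liver esculetin replicate 3) and Nfkbiz (liver control replicate 1, liver esculetin replicate 2 or cell control replicate 3). It also ended that of Rela (cell control replicate 1, cell esculetin replicate 2 or 3), while the calls of Cd40 and Tnfaip2 were kept in 7 and 9 of 17 alternatives. Among the omissions, Cd40 kept its call without liver control replicate 1, liver esculetin replicate 2 or cell esculetin replicate 1, and Tnfaip2 without these or liver control replicate 3. The other 8 were called in all 17.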

How the results depend on the processing

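In the liver the count of 0 lower genes became 2 without a filter on low counts (Icam1 and Irf1), 1 with DESeq2 and 1 with the replicate block. It became 3 with limma-voom at an unadjusted p under 0.05 and a fold change over 1.5. In the edgeR test at an adjusted p under 0.05 it stayed 0 when any 1 library was left out. No listed gene was called higher in the liver in any of these settings. In the cells the 5 lower genes became 3 under that limma-voom criterion and 3 to 6 without each library (3 without control replicate 3), and the 19 higher ones 16 to 21. Of the differences between experiments, 16 higher became 12 to 17 and 2 lower became 0 to 3 without each library, and 1 lower with limma-voom. In the cells the activating list ran from 9 to 14 genes higher and 4 to 5 lower without each library, and the inhibitors from 4 to 5 and 5 to 7. Over all genes, 11 liver calls became 98 with DESeq2, 339 without a filter, 123 with the block and 0 to 31 without each library. Of 476 values of single genes in the cells, 447 kept their side of the threshold, 18 lost a call and 11 gained one; of 431 in the liver, 4 gained one; of 629 differences, 41 lost and 7 gained one; none of these turned a called value round.

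The labels do not say whether replicate numbers pair the libraries. The correlation of same-numbered deviations was 0.14, -0.0053 and 0.10 in the liver and 0.16, -0.030 and 0.080 in the cells, and not every library correlated best with its own number. With so few libraries per group, these correlations cannot settle whether the libraries are paired. With the replicate block 21 genes were called higher and 5 lower in the cells, and 16 and 2 for the difference. Counts of at most 12 per library limit Tnf, Il6, Il10, Nos2, Nfkbid, Traf1 and Cd80 in the liver and Il1a, Il1b, Il6, Il10 and Vcam1 in the cells.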
